A study of Mus musculus with 8 samples.

Results

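A lost region, as the word is used here, is a stretch of the mouse genome where a peak of open chromatin was called in natural killer (NK) cells of at least 3 of 4 wild-type mice and of 0 of 4 mice with a mutant HSF1. The regions were selected on these peak calls, so their absence from the mutant lists is how they were chosen and not a finding. Merging the peaks of all 8 lists gave 55946 regions, and 305 of them (0.545%) were lost: 89 (0.159%) had a peak in all 4 WT lists and 216 in exactly 3. The mirror rule, at least 3 MUT lists and 0 WT lists, found 890 gained regions (1.59%). The WT libraries (replicates 4, 5, 6 and 7) came from mice with wild-type HSF1. The MUT libraries (replicates 26, 27, 28 and 29) came from mice labelled HSF1-S303/7A, in which serines 303 and 307 of HSF1 are alanines. All 8 were CD49b+ CD3e- spleen cells at steady state, 1 mouse a library and 200000 cells a mouse. Strain, age, sex and litter are not stated in the labels, and the mutation is described as carried by the mice, so all their cells and not only NK cells may bear it. The replicate numbers form a separate run for each genotype, and any other difference between the 2 sets of mice cannot be told apart from genotype.

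ATAC-seq marks open chromatin by the insertion of a transposase, and clusters of insertions are called as peaks, most often at promoters and enhancers. NK cells are cytotoxic innate lymphocytes that weigh activating against inhibitory receptors. In mice many of these receptors (the Klrb1, Klrk1, Klrc and Ly49 or Klra genes) lie together in the NK gene complex of chromosome 6. HSF1 is the main transcription factor of the heat shock response, it binds repeats of GAA in alternating orientation, and phosphorylation at the mutated serines is known as a mark of its repressed state. A missing peak says that a peak was not called in a list, and not that the site was closed. Because each library is a bulk of cells, fewer cells with an open site and less access per cell cannot be told apart.

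Lost regions reached into the promoter windows of 16 genes, 15 of them protein-coding. A window runs from 250 bp before to 50 bp after a start site, and the sequences are those of RefSeq, GRCm38.p6. The windows of the 5 genes whose lost region was in all 4 WT lists are printed with that of Tcf7, which was in 3, since Tcf7 encodes TCF-1, a transcription factor of NK and T cell development. Each reads 5′ to 3′ along its gene, with the bases inside the lost region in capitals. Mc1r (melanocortin 1 receptor) lies on the plus strand at chr8:123406832-123407131, Sdc4 (syndecan-4, a cell surface proteoglycan) on the minus strand at chr2:164443139-164443438, and Fcho1 (a protein of clathrin-coated pit assembly) on the minus strand at chr8:71725632-71725931. Cdk2ap1 (a CDK2-associated protein) lies on the minus strand at chr5:124354579-124354878, Gpr65 (a proton-sensing receptor of leukocytes) on the plus strand at chr12:98268385-98268684, and Tcf7 on the minus strand at chr11:52282965-52283264.
Mc1r: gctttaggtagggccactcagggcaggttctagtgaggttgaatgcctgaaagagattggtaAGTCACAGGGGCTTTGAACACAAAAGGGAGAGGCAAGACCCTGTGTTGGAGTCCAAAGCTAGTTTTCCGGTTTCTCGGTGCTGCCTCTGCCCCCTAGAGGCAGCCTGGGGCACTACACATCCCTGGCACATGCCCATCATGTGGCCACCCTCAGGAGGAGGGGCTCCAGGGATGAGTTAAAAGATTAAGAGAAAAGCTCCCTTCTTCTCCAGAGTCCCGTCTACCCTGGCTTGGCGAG
Sdc4: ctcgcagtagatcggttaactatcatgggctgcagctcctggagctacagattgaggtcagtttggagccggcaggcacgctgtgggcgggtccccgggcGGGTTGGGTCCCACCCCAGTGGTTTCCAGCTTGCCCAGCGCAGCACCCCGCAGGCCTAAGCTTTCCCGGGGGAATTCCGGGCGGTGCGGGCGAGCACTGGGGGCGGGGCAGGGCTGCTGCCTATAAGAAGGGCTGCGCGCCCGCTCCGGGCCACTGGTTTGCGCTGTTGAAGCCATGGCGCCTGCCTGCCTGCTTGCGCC
Fcho1: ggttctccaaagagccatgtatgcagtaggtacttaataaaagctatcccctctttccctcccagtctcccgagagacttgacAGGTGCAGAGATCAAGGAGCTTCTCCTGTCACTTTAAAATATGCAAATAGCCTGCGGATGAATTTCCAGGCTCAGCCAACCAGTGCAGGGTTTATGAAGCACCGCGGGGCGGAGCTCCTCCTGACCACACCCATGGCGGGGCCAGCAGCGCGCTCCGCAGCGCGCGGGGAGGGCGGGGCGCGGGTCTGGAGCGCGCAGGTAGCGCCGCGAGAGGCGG
Cdk2ap1: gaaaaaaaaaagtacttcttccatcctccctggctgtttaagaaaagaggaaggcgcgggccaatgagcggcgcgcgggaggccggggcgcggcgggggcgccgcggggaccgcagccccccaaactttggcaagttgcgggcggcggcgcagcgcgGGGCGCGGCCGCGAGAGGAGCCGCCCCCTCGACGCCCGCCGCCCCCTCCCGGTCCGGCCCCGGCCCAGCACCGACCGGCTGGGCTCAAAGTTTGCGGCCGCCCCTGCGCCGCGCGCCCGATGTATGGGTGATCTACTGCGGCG
Gpr65: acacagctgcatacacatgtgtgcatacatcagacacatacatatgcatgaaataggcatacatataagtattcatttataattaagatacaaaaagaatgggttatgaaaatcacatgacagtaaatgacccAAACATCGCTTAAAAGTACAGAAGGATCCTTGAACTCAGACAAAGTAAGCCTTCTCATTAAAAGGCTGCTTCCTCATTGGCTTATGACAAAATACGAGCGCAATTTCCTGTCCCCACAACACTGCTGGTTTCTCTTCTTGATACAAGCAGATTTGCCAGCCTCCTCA
Tcf7: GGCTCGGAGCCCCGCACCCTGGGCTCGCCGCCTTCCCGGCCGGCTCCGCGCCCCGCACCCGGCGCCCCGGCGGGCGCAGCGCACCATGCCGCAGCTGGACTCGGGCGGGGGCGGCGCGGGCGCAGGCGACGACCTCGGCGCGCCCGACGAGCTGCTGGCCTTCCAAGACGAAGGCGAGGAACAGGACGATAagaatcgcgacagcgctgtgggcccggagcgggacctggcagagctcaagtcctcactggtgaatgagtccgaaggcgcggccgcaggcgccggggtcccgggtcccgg

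In these 6 windows the lost region covered 238 bp (Mc1r), 200 bp (Sdc4), 217 bp (Fcho1), 143 bp (Cdk2ap1), 167 bp (Gpr65) and 191 bp (Tcf7). The nearest MUT peak lay 1641, 1404, 740, 478, 809 and 349 bp from the lost region in the same order. Tcf7 was also the nearest gene of 9 regions with a peak in all 8 lists. The other 10 windows belonged to Bspry, Ptpn21, Ptprn2, H2ac10, Pcp4, H2-Q10, Tspan7, P2ry10b, Map10 and 1 predicted gene, all with a lost region in exactly 3 WT lists. At Map10 the lost region touched 14 bp of a window that other peaks covered in all 8 lists, so that window was not itself without peaks in MUT. The 16 windows had a median GC content of 61.2%, against 52.7% over all 32851 windows of the table. Motifs were counted as exact letters on either strand of the whole window, also outside the lost region. Some matches lay outside it, such as those of ETS at Bspry and Map10 and of CCAAT at Cdk2ap1, Mc1r and P2ry10b. The GC box (GGGCGG) was in 9 of the 16 windows (56.25%) against 35.7% of all windows, and the CCAAT box (CCAAT) in 7 (43.75%) against 37.4%. An ETS core (CCGGAA) was in 4 (25%) against 14.9%, and a RUNX site (TGTGGT) in 3 (18.75%) against 16.8%. Of the heat shock element, the inverted pair GAANNTTC was in 1 (6.25%) against 7.86% and the everted pair TTCNNGAA, which can overlap it, in 2 (12.5%) against 8.52%. The AP-1 site TGANTCA was in 1 (6.25%) against 7.81%, and TGACGTCA and the T-box site AGGTGTGA in 0, against 1.79% and 1.28%. With 16 windows these shares only describe the letters. They say nothing of which factor was bound.

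In the grid of regions by number of WT and MUT lists, the 305 lost regions fill the 2 cells with 0 MUT lists and 3 or 4 WT lists. Beside them stood 226 regions in 4 WT lists and 1 MUT list, 442 in 3 and 1, and 730 in 2 and 0. The largest cell held 34461 regions with a peak in all 8 lists. For comparison, a set of 3678 mixed regions was formed from those with a peak in 3 or 4 lists drawn from both genotypes, which like the lost regions were called in few lists. The WT lists held 44717 ± 1439 peaks and the MUT lists 46352 ± 2394 (SD, n = 4 each; exact two-sided permutation test, p = 0.371, where the smallest possible p is 0.0286). List length moved with the counts: when each list was shortened to its 42695 highest scores, there were 446 lost and 651 gained regions, so that the number of gained regions per lost region was 1.46 and not 2.92. Leaving out a library relaxes the rule to the remaining lists. The number of lost regions was then 588, 548, 741 and 819 without WT 4, 5, 6 and 7, and 368, 657, 460 and 410 without MUT 26, 27, 28 and 29.

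**Figure D1:**
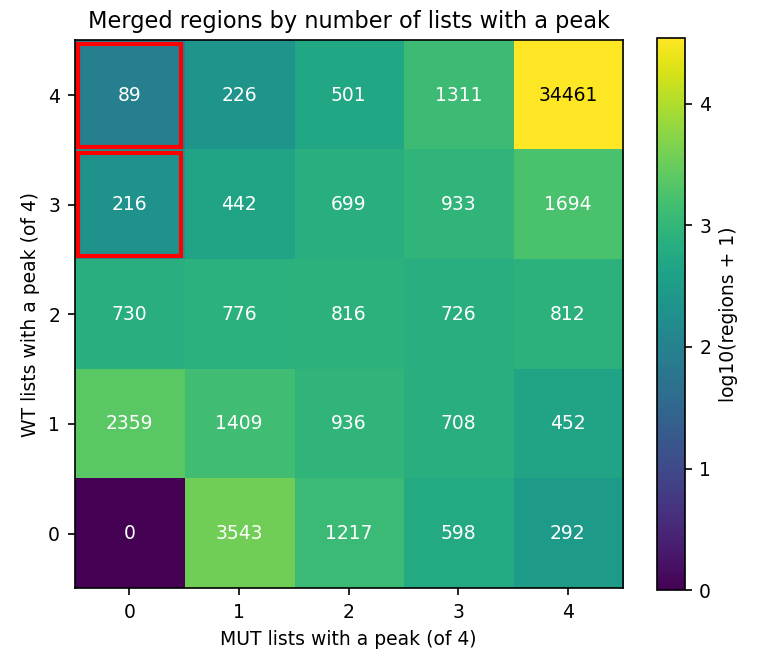
Number of merged regions by the number of WT lists (vertical axis, 0 to 4) and MUT lists (horizontal axis, 0 to 4) with a peak. Red outlines mark the lost regions, 89 in all 4 WT lists and 216 in exactly 3, with 292 and 598 in the mirror cells of the gained ones.

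Because choosing regions by 8 lists leaves no list to test them in, regions were also chosen with 3 WT and 3 MUT lists and then read in the 2 lists left out, for all 16 pairs of left-out libraries. Between 135 and 380 regions had a peak in the 3 WT lists used and none in the 3 MUT lists used. On average 66.1% of them (49.8% to 84.1%) had a peak in the WT list left out and 34.2% (12.6% to 55.3%) in the MUT list left out. WT was the higher of the pair in 15 of 16, and the exception was WT 6 with MUT 27, at 51.8% and 54.5%. The pairs share libraries and are not independent, so no p is given. The WT library left out mattered: the share recovered there was 77.9% in WT 4 and 78.2% in WT 5, but 53.4% in WT 6 and 54.9% in WT 7. On the MUT side it was 15.2% in MUT 26, 54.3% in MUT 27, 34.2% in MUT 28 and 33.0% in MUT 29. MUT 27 had the longest list (49627 peaks), and mixed regions chosen the same way were found in it at 73.3%, against 41.6%, 55.5% and 35.2% in MUT 26, 28 and 29. Mixed regions overall were read at 44.4% in WT and 51.4% in MUT, with WT higher in 6 of 16 pairs. With all lists shortened to one length, the lost regions stood at 66.7% in WT and 32.2% in MUT and WT was higher in 16 of 16 pairs.

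**Figure D2:**
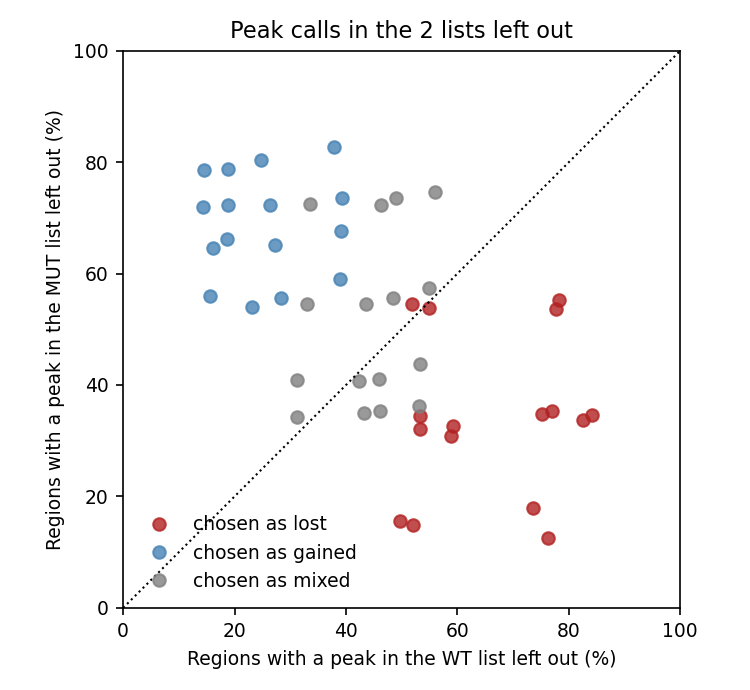
Share of regions with a peak in the WT list left out (horizontal axis, %) and in the MUT list left out (vertical axis, %), for regions chosen as lost, gained or mixed with the other 6 lists, 1 point for each of 16 pairs of left-out libraries. Points below the dotted line of equal shares have the higher share in WT: 15 of 16 for lost regions (mean 66.1% in WT and 34.2% in MUT), 0 of 16 for gained ones (25.1% and 68.7%) and 6 of 16 for mixed ones (44.4% and 51.4%).

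Lost regions were weak and narrow among all peaks. Each peak was ranked by its score within its own list (100 is the strongest), and the value of a region was its mean over the lists that held it. For lost regions these were WT lists only, while mixed regions and those in all 8 lists include MUT peaks. The median of lost regions was the 19.0th percentile (quartiles 9.36 and 26.0), 23.4 for those in all 4 WT lists and 17.5 for those in exactly 3. Mixed regions had a median of 17.3, regions in all 8 lists 61.4 and all regions 37.6. The median width was 277 bp for lost regions, 286 bp for mixed ones and 610 bp for regions in all 8 lists. Of the 305, 81 had a mean below the 10th percentile and only 5 a mean of at least the 50th. The 4 or 3 WT values of 1 region spanned a median of 11.3 percentile points and at most 66.3.

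**Figure D3:**
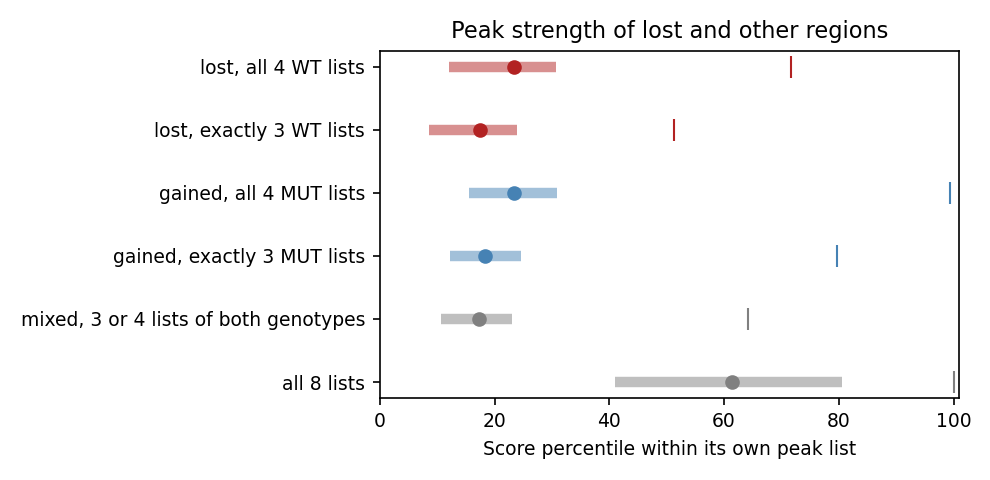
Score percentile of the peaks (horizontal axis, 100 is the strongest in its list) by class of region. Dots are medians, bars run between the quartiles and ticks mark the highest region, and the lost regions in all 4 WT lists (median 23.4, highest 71.6) and in exactly 3 (17.5, highest 51.3) lie with the mixed regions (17.3) and below those in all 8 lists (61.4).

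The 216 regions in exactly 3 WT lists lacked a peak mostly in WT 6 (84) or WT 7 (78), and less in WT 4 (29) or WT 5 (25). For the 1694 regions with a peak in 3 WT lists and all 4 MUT lists the missing list was WT 7 in 792, WT 4 in 356, WT 6 in 337 and WT 5 in 209. WT 7 had the shortest list of the 8, with 42695 peaks. Lost regions thus had a peak in 276 cases in WT 4, 280 in WT 5, 221 in WT 6 and 227 in WT 7. The median percentile of those peaks was 17.5, 19.6, 16.7 and 15.1 in the same order.

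Most lost regions lay away from gene ends. At gene ends, meaning that a protein-coding gene starts or stops within 1 kb, lay 40 of 305 (13.1%, 95% exact interval 9.54% to 17.4%), against 13.9% of mixed regions, 24.99% of all regions and 32.6% of regions in all 8 lists. Gene bodies held 139 (45.6%) and the stretches between genes 126 (41.3%). Exons and introns were not analysed here. For 71 regions (23.3%) no protein-coding gene ended within 50 kb, compared with 17.3% of all regions. The nearest MUT peak was at a median distance of 3415 bp (quartiles 894 and 14401 bp). It was within 500 bp for 53 lost regions (17.4%) and within 100 bp for 10 and it was over 10 kb away for 93. By chromosome, lost regions made up 1.11% of the regions of chromosome 16 (21 of 1890) and 0.942% of chromosome 6 (30 of 3185), and 0.115% of chromosome 19 (2 of 1740). Of the 89 regions in all 4 WT lists, 14 were on chromosome 6. Within 10 Mb of Hsf1 itself lay 864 regions, of which 4 (0.463%) were lost and 11 gained.

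The strongest lost region was 42909 bp from the nearer end of Hlx, which encodes a homeobox transcription factor, at chr1:184683531-184684234. Its peaks stood at the 84.1, 71.7, 48.6 and 82.1 percentiles in WT 4, 5, 6 and 7, and the nearest MUT peak was 47607 bp away. WT 6 was the lowest of the 4 and the others were all above 70. Next came a region in the body of Pdgfrb, the beta receptor of platelet-derived growth factor, at chr18:61065522-61065850, with 68.2, 67.5, 61.7 and 55.6. All 4 of its WT values were in the upper 50% of their lists. A second, weaker lost region lay 121 bp from it (14.3, 24.4, 28.1 and 10.3), and MUT had no peak within 17461 bp of the first. In the body of Abcc9, a subunit of ATP-sensitive potassium channels, the region at chr6:142669369-142669743 stood at 69.3, 63.1, 34.9 and 57.7. A region between genes near Uchl1, a ubiquitin hydrolase best known from neurons, stood at 59.3, 46.7, 38.9 and 54.4 (chr5:66662964-66663276), with a MUT peak 992 bp away. As at Hlx, WT 6 was the lowest of the 4 lists at Abcc9 and Uchl1.

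Several of the strongest regions had no protein-coding gene end within 50 kb. A pair on chromosome 9 lay at 80669806 to 80670382 (49.8, 40.1, 43.4 and 41.3) and 80723674 to 80724017 (46.3, 46.7, 32.4 and 45.6), and no MUT peak was within 37328 bp of the first. A region on chromosome 1 at 185058199 to 185058645 stood at 46.8, 60.7, 20.3 and 58.4. On chromosome 18 a region at 47169872 to 47170317 ranged widely, from 11.3 in WT 4 to 64.6 in WT 6. Ankrd36, an ankyrin repeat gene, had 2 regions in all 4 WT lists. The one in its body (chr11:5682579-5682934) stood at 38.7, 49.1, 51.7 and 34.3, and the one 2153 bp outside it at 21.3, 45.5, 29.8 and 28.4.

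Among regions in exactly 3 WT lists, Pkd2l2, a gene of the polycystin channel family, had the strongest. That region covered a gene end (chr18:34442781-34443155) at 28.0, 58.6 and 67.3 in WT 4, 5 and 6, and a second in the gene body stood at 34.6, 49.8 and 51.3. WT 7 lacked both. Akap6, a scaffold of protein kinase A, had a region in its body at 23.7, 89.98 and 38.1 in WT 4, 5 and 7, the widest range among the 305. A region 33797 bp from Vrk2, a serine/threonine kinase gene, stood at 48.7, 47.9 and 52.8 in the same lists. The 3 values near Mixl1, a homeobox gene, were 52.0, 49.1 and 23.8 in WT 4, 5 and 6. Nfu1, which acts in iron-sulfur cluster assembly, had 1 region in its body and 1 at an end, missing from WT 6 and WT 4 respectively, and the end one stood at 35.3, 27.0 and 20.7. Ttll1, a tubulin glutamylase, had a gene-end region missing from WT 4, at 46.7, 29.8 and 17.98 in the others.

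**Figure D4:**
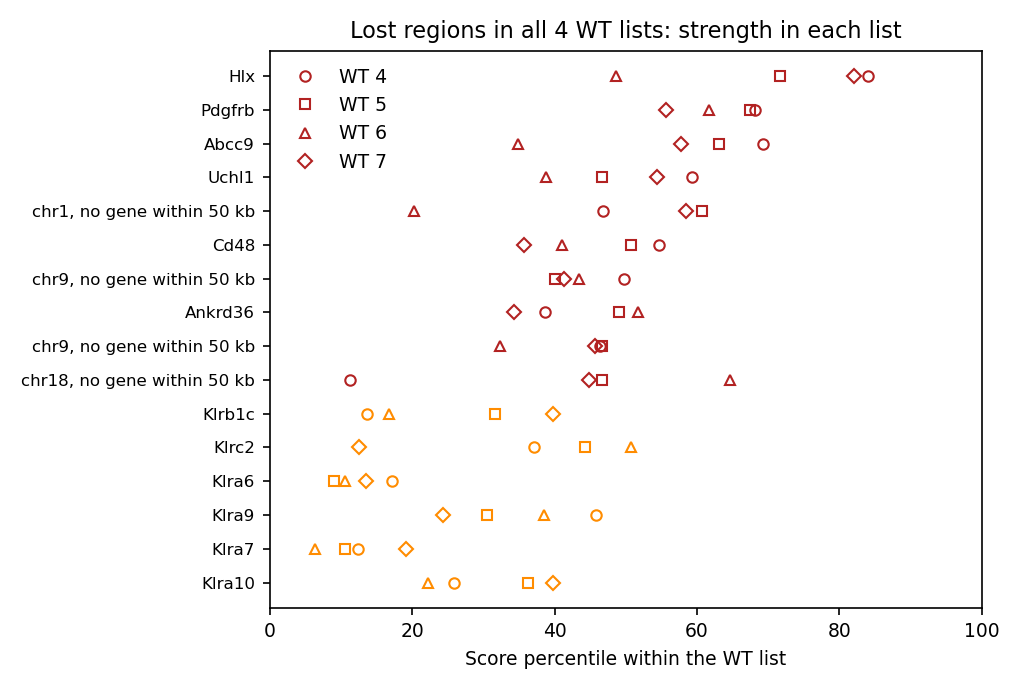
Score percentile of the peak in each WT library (horizontal axis, 100 is the strongest in its list) for lost regions in all 4 WT lists, 1 row a region and 1 symbol a library. Red rows are the 10 with the highest mean and orange rows the 6 of the NK receptor genes; the Hlx region spans 48.6 to 84.1, the stronger Pdgfrb region 55.6 to 68.2 and the Klra7 region 6.42 to 19.1.

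At gene ends the lost regions were weaker still: 21 of the 40 had a mean below the 10th percentile. The Mc1r promoter region was the strongest of the promoters printed above, at 25.9, 33.5, 14.4 and 24.8 in WT 4, 5, 6 and 7. The others were near the bottom of every WT list. Sdc4 stood at 5.06, 5.32, 3.57 and 7.12, Fcho1 at 5.79, 4.61, 1.68 and 2.21, and Cdk2ap1 at 1.60, 2.66, 3.17 and 5.07. Gpr65 stood at 1.29, 4.91, 2.68 and 2.23, and Tcf7 at 3.14, 1.09 and 6.06 in WT 4, 5 and 7. The Fcho1 region, 3482 bp inside the annotated gene, is outside the rule for named regions and is given because its promoter was seen to qualify. At Zfp574, a zinc finger gene, the values were 24.3, 28.2, 28.3 and 13.7. The region beside Toe1, an RNA-processing exonuclease gene, and the one beside Ndst1, an enzyme of heparan sulfate synthesis, had means of 0.613 and 0.543, among the weakest peaks called at all. Sdc4, Cdk2ap1, Gpr65, Tcf7, Toe1 and Ndst1 were no longer lost when the lists were shortened to one length.

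The NK receptor genes of chromosome 6 held 9 lost regions. The span from Klrb1a to Klra2 (chr6:128609227-131247716, 32 genes) contained 181 regions, of which 97 were in all 8 lists, 9 (4.97%) were lost and 6 (3.31%) gained. Thus 6 of the 9 lost ones were in all 4 WT lists, and 3 of the 6 gained ones in all 4 MUT lists. Over all 181, 54 regions were in more WT than MUT lists, 22 in more MUT lists and 105 in equal numbers, whereas over all 55946 these were 7349, 10978 and 37619. With lists of one length, 62 regions of the span were in more WT and 14 in more MUT lists, and over all regions 8970 and 8769, so the excess of MUT in the background was not seen there. The span then held 13 lost and 4 gained of 164 regions, where all regions together held 446 lost and 651 gained. The shares of 0.545% and 1.59% over all regions belong to the lists as deposited. Of every 1000 peaks in a list, 3.11, 3.38, 3.26 and 3.07 lay in this span in WT 4, 5, 6 and 7, and 2.81, 2.68, 2.72 and 2.91 in MUT 26, 27, 28 and 29. The 2 genotypes did not overlap on this scale. In peaks counted as such they did, with 140, 156, 147 and 131 in WT and 126, 133, 127 and 129 in MUT, since WT 7 lay below MUT 27. With lists of one length they did not, with 129, 130, 135 and 131 in WT and 113, 99, 108 and 118 in MUT. These counts include the lost regions and were looked at because of them, so a higher WT count is partly built in and no test is given. How often other spans of the genome would separate alike was not tested. In the upper 50% of each list the order was absent, with 43, 47, 46 and 48 peaks in WT and 50, 49, 47 and 46 in MUT.

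Among activating receptor genes, Klrc2, which encodes NKG2C, had a lost region 556 bp from its end, at 37.2, 44.2, 50.7 and 12.5 in WT 4, 5, 6 and 7. Its promoter window had a peak in 4 WT lists and 1 MUT list. A region between genes, 24304 bp from Klrb1c, the gene of the NK1.1 antigen, stood at 13.7, 31.6, 16.7 and 39.8. A MUT peak lay 159 bp from that region. Klrb1a, of the same family, had one 4806 bp away, in 3 lists at 6.45, 5.21 and 2.296 (WT 4, 5 and 6). Klrk1, the gene of the receptor NKG2D, had one at 7.67, 5.50 and 3.79 (WT 4, 6 and 7), 87 bp from a MUT peak and with its promoter open in all 8 lists. The Klrb1a and Klrk1 regions were thus weak, and those at Klrc2 and Klrb1c ranked higher but varied more between the WT lists.

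The lost regions of the inhibitory receptor list had Klra genes as nearest genes, which encode the Ly49 lectin-like receptors. Those linked to Klra9, Klra6 and Klra10 lay between genes, 15222, 8215 and 2664 bp from the gene end. The promoter windows of these genes had a peak in 0 WT and 0 MUT lists, and that of Klra7 in 4 and 4. Klra9 stood at 45.9, 30.5, 38.5 and 24.4 (chr6:130163060-130163404), and Klra10 at 25.9, 36.3, 22.3 and 39.8 (chr6:130286311-130286658). Klra6 stood at 17.1, 9.02, 10.6 and 13.5, and Klra7, in its gene body, at 12.4, 10.6, 6.42 and 19.1. All 4 were in all 4 WT lists, and the Klra9 and Klra10 regions ranked above the Klra6 and Klra7 regions in every list. Their nearest MUT peaks were 1505 bp (Klra9), 1555 bp (Klra10), 3215 bp (Klra6) and 1569 bp (Klra7) away. The Klra genes are close copies of each other, so peaks there are uncertain, and the treatment of reads with several matches is not stated in the labels. Clec2h, a C-type lectin gene beside the Klrb1 genes, had a region 9109 bp away. It was missing from WT 4 and stood at 25.1, 41.5 and 26.0 in WT 5, 6 and 7.

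**Figure D5:**
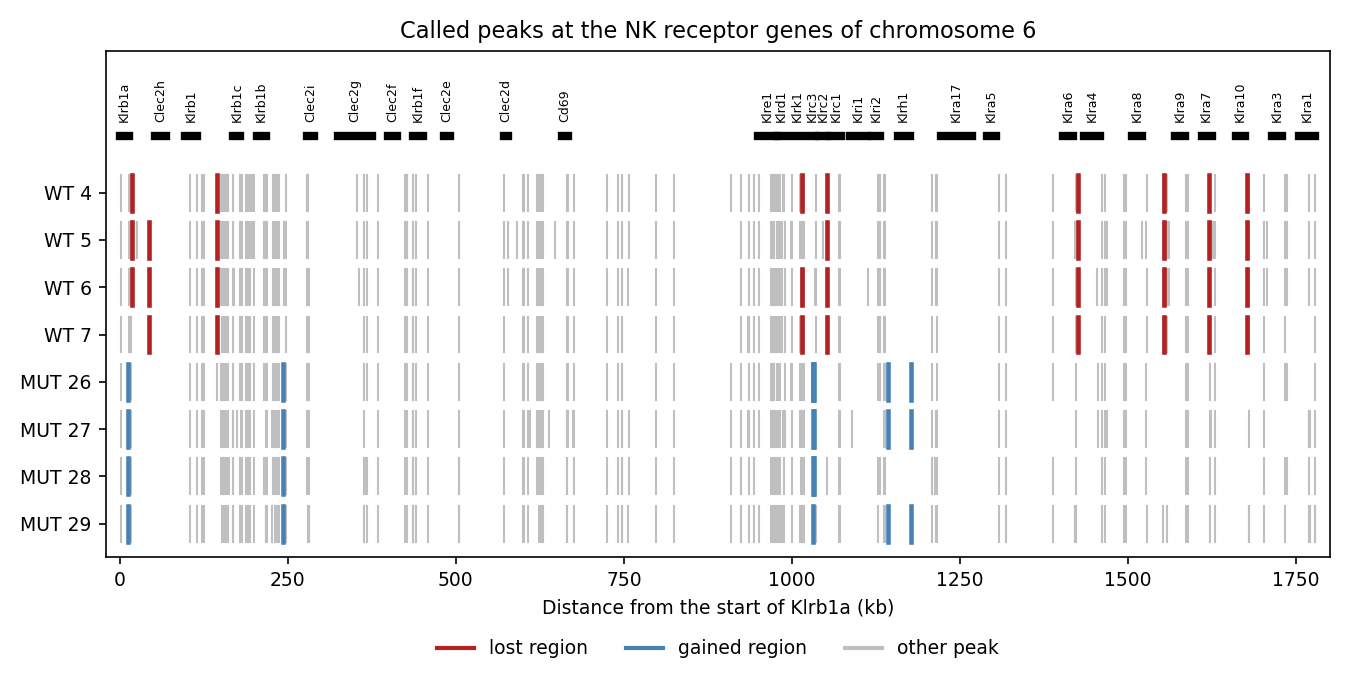
Called peaks in each of the 8 lists (rows) at the NK receptor genes of chromosome 6, by distance in kb from the start of Klrb1a, with the genes as black bars on top. Red ticks are peaks of the 9 lost regions (6 of them in all 4 WT lists), blue ticks those of the 6 gained regions and grey ticks all other peaks, and Klra2 lies beyond the plotted stretch.

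Regions were grouped by the lists to which the nearest gene belonged. Against 0.545% of all regions, the lost share was 4.49% (7 of 156) for activating receptors, their adaptors and SLAM genes, and 4.71% (4 of 85) for inhibitory receptors. With lists of one length, 5 of these 7 regions were still lost, without those of Cd244a and Klrb1a, and 4 of the 4. All lost regions of both lists lay at the NK receptor genes described above or at Cd244a and Cd48, described below. The shares therefore count the same regions again, and no receptor gene of these lists elsewhere had a lost region. The gained share of these lists was also above its background of 1.59%, at 3.85% (6 regions) for the first, and 2 regions of the second were gained. In all, 25 lost regions were linked to 24 genes of the 15 lists. The lists were chosen with results for these regions known, and the counts are descriptions.

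A group of 3 lost regions lay at the SLAM family genes of chromosome 1, which encode receptors of leukocyte contact. Cd48, the ligand of CD244, had a region in all 4 WT lists 7802 bp from its end (chr1:171672887-171673443), at 54.7, 50.7, 41.0 and 35.8. A second, 152 bp from it, was at 14.7, 13.04 and 25.6 in WT 4, 5 and 6. Near Cd244a, the gene of the receptor 2B4, a region stood lower, at 9.64, 4.91, 2.82 and 8.09, and it was not lost with lists of one length, where 2 WT lists kept the peak. The same stretch of 23 regions (chr1:171551384-171673443) also held 3 gained regions.

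Of the NK lineage transcription factors 3 of 352 linked regions were lost (0.852%). Lef1, a partner of TCF-1, had one in all 4 WT lists at 24.6, 28.9, 11.2 and 16.3, 3985 bp from the gene. Runx1, a core factor of blood cell development, had one in its body at 12.6, 28.7 and 33.7 in WT 4, 5 and 7, and Tcf7 the promoter region given above. Cytokine receptors and JAK-STAT genes had 3 of 223 (1.35%): Il2rb, the chain shared by the IL-2 and IL-15 receptors, at 9.50, 15.96 and 10.9 (WT 4, 5 and 7), Il7r at 11.7, 18.7 and 8.60 (WT 4, 5 and 6), and Il10rb at 1.71, 4.50 and 3.75 (WT 4, 5 and 7). Each of these was in 3 lists only and none stood above the 18.7 percentile. A MUT peak lay 186 bp from the Il7r region and 418 bp from the Il2rb region. The promoter window of Il7r had a peak in 2 WT lists and 4 MUT lists, the opposite order. The Il10rb region, between genes and 24111 bp from Il10rb, was not lost with lists of one length, nor was the Pik3cd region of the next list. Signalling genes had 2 of 230 (0.870%), linked to the phosphoinositide kinase genes Pik3cd (1.79, 1.70, 1.39 and 1.95) and Pik3cg (22.5, 24.1 and 11.9 in WT 4, 5 and 6). The second lay between genes, 37229 bp from the nearer end of Pik3cg. Among homing genes, Sdc4 and Gpr65 had the promoter regions given above.

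Chaperone genes known as HSF1 targets had 1 lost region of 62 (1.61%). It lay in the body of Hspa4l, an HSP110-family gene, at 0.254, 0.749 and 1.66 in WT 4, 6 and 7, at the floor of each list, and was not lost with lists of one length. The promoter window of Hspa4l had a peak in all 8 lists. Cytotoxic effector genes had 0 lost of 131 linked regions. Markers of T cells (50 regions), myeloid cells (31), basophils (34) and erythroid cells (16) had 0, B cell markers 1 of 28 (3.57%) and genes of immature NK cells or ILC1 1 of 81 (the Il7r region). The B cell one was in the body of Spib, an ETS factor of B cells, at 25.2, 27.5, 15.5 and 21.7, with a MUT peak 15 bp away. As a check of the sorted cells, 9 of 9 NK markers and 4 of 4 T cell markers had a gene-end peak in all 8 lists, as did 0 of 4 B cell, 1 of 4 myeloid and 1 of 3 erythroid markers. The part of other cells in the lost regions was not tested.

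Most lost regions stood alone. Counting those within 500 kb of each other, 216 had no lost neighbour, 29 pairs were found, and 31 regions formed 9 groups of 3 or more. Besides the groups at the NK receptor and SLAM genes, 3 regions lay around Mgll, the gene of monoglyceride lipase, among 9 regions in all (chr6:88716097-88831803). Their values were 8.25, 13.6, 7.61 and 33.8 before the gene, 5.81, 11.3 and 16.7 in its body (WT 4, 6 and 7), and 31.4, 31.0, 25.7 and 19.3 after it. On chromosome 16, 3 of the 4 regions between 76002367 and 76130290 were lost, all in exactly 3 WT lists and with no gene end within 50 kb. On chromosome 14, 3 of 4 regions between 51098334 and 51386244 were lost, 1 in the body of Ang, the angiogenin gene, and 2 in a predicted gene whose nearest MUT peak was at least 255200 bp away. The group of chromosome 11 (4 of 38 regions) joined both Ankrd36 regions with one near Urgcp (38.5, 27.0 and 20.7 in WT 5, 6 and 7) and one in the body of Ddx56 (30.1, 29.6 and 29.8 in WT 4, 5 and 6).

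The 234 lost regions with a gene end within 50 kb were linked to 225 genes, 8 of which had more than 1. For 183 of them (81.3%) another linked region was in all 8 lists, compared with 87.2% of all 14504 genes with a linked region, and 21 had lost regions only. Genes linked to a lost region had a median of 4 linked regions, and all such genes 2. A promoter window was listed for 170 of the 225. Where a gene had several, the window with a peak in the most lists was taken, as for the receptor genes and Hspa4l above. The window taken held a peak in all 8 lists for 97 (57.1%), in some lists for 26 and in none for 47. Ptpn21 and P2ry10b thus counted with 4 WT and 4 MUT lists, though the windows that their lost regions reached had 3 and 0. Over all 17492 protein-coding genes with a window, 8665 (49.5%) had a peak in all 8 lists.

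The peaks just outside the rule were of like strength. The 226 regions in 4 WT lists and 1 MUT list had a median WT percentile of 22.0. The strongest were near Tstd1 (81.6 in WT and 58.6 in the MUT list), Pole4 (80.8 and 44.1) and Clec4f (78.1 and 39.5). The 442 in 3 WT lists and 1 MUT list had a median of 18.6, led by a region near Zfp469 at 54.4, one near C2cd4a at 54.1 and one on chromosome 6 without a gene at 52.9. The 730 in 2 WT lists and 0 MUT lists had a median of 15.2, led by Gemin5 (53.8), Ear1 (50.2) and Trim58 (49.2). Just inside the rule, the strongest regions were those of Hlx (a mean of 71.6), Pdgfrb (63.2) and Abcc9 (56.3) in 4 lists, and Pkd2l2 (51.3) and Akap6 (50.6) in 3.

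Strong peaks were seldom lost altogether. Taking only the upper 50% of each list, 223 regions met the rule, but 220 of them had a weaker MUT peak in the full lists, 188 in all 4. The other 3 were the regions of Hlx, Abcc9 and Pdgfrb. The reading therefore depended on where in the ranking a peak counts as called: of the 305, 232 (74 of the 89) were also lost with lists of one length, and 3 with the upper 50%. The last number was limited by the WT peaks themselves, since only 5 of the 305 had a mean of at least the 50th percentile.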

How the data were processed

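ATAC-seq was made from sorted splenic NK cells of 4 WT and 4 MUT mice, 1 library a mouse. Each deposited file is the peak list of 1 library with an unnamed positive score per peak, the authors' own value, which was used only to rank peaks within that list (the score percentile, where 100 is strongest). The submitters' processing notes name the build mm10 and, without roles, DiffBind 3.0.12, DESeq2, Bowtie2 2.3.4.1 and Trimmomatic. Peaks came per library and not pooled. How they were called and filtered, and whether reads were shifted for the transposase, is not given in the sources used here. Read depth is unknown, so no count model was run.

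Peaks overlapping by 1 bp were merged with Python 3.11.15, pandas 2.3.3 and numpy 2.4.6. The code was checked on simulated lists of well-separated regions, which do not test the merging of close neighbours. A gene-end region had the start or stop of a protein-coding gene within 1 kb (RefSeq GRCm38.p6, 21900 genes), and links to the nearest gene reached 50 kb. Exact two-sided permutation tests used scipy 1.17.1, and confidence intervals (95%) are Clopper-Pearson and cover counting error only. The replicate numbers of the genotypes differ and pair no samples. Alternatives changed the threshold, the merging, the chromosomes and the libraries.

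The regions, the 15 gene lists (279 of 280 entries matched) and the rule for named regions were chosen with earlier results of these data known. The rule takes, among regions in all 4 WT lists, up to 15 at gene ends and the 10 strongest. Among those in exactly 3 it takes the 10 strongest at gene ends and the 10 strongest elsewhere. It adds regions linked to list genes, groups of 3 or more with gaps of at most 500 kb, and the 3 strongest near misses of each kind. Predicted genes were counted and not named. The result for 1 listed gene is not reported here.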

Additional observations from a re-analysis of the deposited data

Results flagged for a closer look

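Of 50 sets of 4 values examined, each from 1 genotype, 1 had a library far from the rest. Some sets were the peaks and covered length of the lists, or those of the NK receptor and SLAM spans, in WT or MUT. The others were the WT percentiles of named regions in all 4 WT lists. In the region of chromosome 9 at 80723674 to 80724017, WT replicate 6 stood at the 32.4 percentile, while the other 3 lay between 45.6 and 46.7. Chance alone would set about 1 in 20 such sets apart, so 1 in 50 is below that rate. The region had a peak in all 4 WT lists and in 0 MUT lists either way.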

How the results depend on the processing

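With lists of one length, 446 regions were lost and 651 gained, and those in all 4 WT lists rose to 138. With the upper 50% of each list, 223 were lost and 520 gained, and the difference in NK receptor peaks turned from a lower to a higher MUT mean, by 2 peaks a list. The mean number of these peaks was 143.5 in WT and 128.75 in MUT as deposited, and 131.25 and 109.5 with lists of one length (both alternatives chosen after seeing the data). Joining peaks up to 100 bp apart gave 295 lost regions, and counting only peaks that cover 50% of a region gave 342. Without regions near a peak of the other genotype (500 bp) 252 remained. Leaving out each replicate gave 368 to 819 lost and 1041 to 1708 gained regions, 102 to 198 with all WT lists and 263 to 652 with all but 1. A gene end widened to 5 kb took in 30.5% of lost regions, against 39.2% of all. Taking the strongest WT peak in place of the mean gave a median percentile of 25.1. In all, 70 of the 95 alternatives to the main values were counted as unchanged. For peaks and covered length per list this required the same direction and a permutation p on the same side of 0.05. For the other results it required a value near the main one. Of 75 named regions 63 were lost with lists of one length and 73 with joined peaks. The lists hold no counts, so a peak just under the threshold and an absent one look alike.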
